A study of Mus musculus with 12 samples.

Results

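The caveolae coat genes examined here were the 3 caveolins Cav1, Cav2 and Cav3, the 3 cavins Cavin1, Cavin2 and Cavin3, and Ehd2. They were taken as a family by gene symbol from the annotation of the array, with earlier results of these data known, and make up 7 of the 18193 genes that at least 1 probe set named alone. Together they were read by 16 of 45037 probe sets. Each gene was represented by the probe set whose log2 values had the highest mean over all 12 arrays, and the remaining probe sets are given beside it.

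Caveolae are small flask-shaped pits of the plasma membrane that are rich in cholesterol and sphingolipid. Caveolins insert into the inner leaflet of the membrane as oligomers, cavins form a peripheral coat around them, and the ATPase Ehd2 sits at the neck of the pit and holds it at the cell surface. Cav1 is required for caveolae outside striated muscle and Cavin1 for caveolae in muscle and elsewhere, whereas Cav3 is the caveolin of cardiac and skeletal muscle. Caveolae buffer membrane tension and are abundant in adipocytes, endothelium, fibroblasts, smooth muscle and cardiomyocytes.

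The arrays profiled murine CGR8 embryonic stem cells, a line grown without feeder cells, at 4 stages on the way to cardiomyocytes, with 3 arrays per stage. ES-LIF(+) cells were kept in 7.5% serum with leukaemia inhibitory factor, the cytokine that holds mouse embryonic stem cells undifferentiated, and ES-LIF(-) cells had gone 48 h without it. Cardiopoietic cells (CP) are described by the study as an intermediate cell type with signs of commitment to cardiac differentiation. They were exposed to a cocktail of recombinant growth factors and cytokines (BMP, TGFβ, IL13, IL3, IGF1, VEGF, EGF, FGF and IL6). The CP cells were then held in 3% serum plus 30 ng/ml TNFα over 5 days, and enriched on a Percoll gradient. Cardiomyocytes (CM) received the same cocktail, were kept for 9 days in 20% serum and were purified on Percoll. All arrays came from 1 cell line with no genetic modification. Stage, serum, culture time, TNFα, the cocktail and Percoll enrichment changed together in CP and CM, and against ES-LIF(+) the removal of LIF as well. Their contributions cannot be told apart. Each stage was sampled independently 3 times according to the methods of the study.

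Values are MAS5 signals, scaled by the authors so that the trimmed mean of every array was equal. A signal is compared between arrays for the same probe set and never between genes. The median signal of an array was 101 to 110.9 in ES-LIF(+), 104.3 to 110.2 in ES-LIF(-), 128.9 to 136.3 in CP and 127.7 to 144.1 in CM. Differences are log2 fold changes of signal + 16 from a limma model over all 12 arrays, with p-values adjusted by Benjamini-Hochberg over the 13145 genes that passed a filter on low signal. A gene was called higher or lower where the adjusted p was under 0.05 and the fold exceeded 1.5. The number of arrays limits the precision. In RNA of a whole cell population, enriched or not, fewer cells that express a gene and less RNA per cell cannot be told apart.

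The CM arrays carried the markers of their label, with 8 of 8 cardiomyocyte markers called higher than in ES-LIF(+), and CP had 3 of 8. For the marker counts against ES-LIF(+), the shares of all genes called higher and lower were 18.9% and 13.4% in CP. In CM they were 25.8% and 23.9%. The summed signal of 8 cardiomyocyte markers was 625.5 to 739.4 in ES-LIF(+), 1735 to 1938 in CP and 118400 to 131600 in CM, and Ryr2 and Tnni3 lay below the array median on all CP arrays. The 5 pluripotency markers summed to 46930 to 47710 in ES-LIF(+), 25410 to 30370 in ES-LIF(-), 27780 to 28670 in CP and 5641 to 7838 in CM. The CP sum overlapped that of the LIF-deprived cells, but single markers differed both ways. Of the 5, 2 were called higher and 2 lower in CP than in ES-LIF(-), beside 18.3% and 14.6% of all genes tested. Markers of other cell types moved with the stages as well. The 9 fibroblast and mesenchyme markers summed to 1130 to 1611 in ES-LIF(+), 94220 to 101000 in CP and 50280 to 51410 in CM, with 8 of 9 called higher in CP and 9 of 9 in CM. The 5 smooth muscle markers summed to 4107 to 5342, 29710 to 34010 and 59590 to 68660 in the same order. The 4 mesothelial markers summed to 532.4 to 745, 7919 to 8010 and 2778 to 3384, with 3 of 4 called higher in CP and in CM, Msln by 6.06 and Upk3b by 5.58 on the log2 scale in CP. The 11 endothelial markers summed to 2250 to 3054, 2280 to 2442 and 3042 to 4070 and overlapped between ES-LIF(+) and CP. Of the 9 endothelial markers tested, 2 were called higher and 2 lower in CP, and 4 higher and 2 lower in CM. Cdh5 was higher by 1.67 in CP and 2.79 in CM, Emcn by 0.92 and 2.62, and Kdr by 1.23 in CM, whereas Pecam1 and Tek were lower in both. The adipocyte marker Fabp4 was higher by 1.97 in CP and 1.36 in CM, and the endoderm markers Sox17 and Foxa2 by 2.51 and 2.93 in CP, whereas the endoderm list also held Epcam and Cdh1, which were lower. Tie1 and Vwf lay below the array median in both CP and CM, as did the adipocyte markers Adipoq, Pparg and Lep and the skeletal muscle markers Myog, Myf5, Myh3 and Myh4. Several markers, among them Tnnt2, Myl2, Nppa, Ryr2, Pdgfra, Lum, Postn, Msln, Cdh5, Emcn and Fabp4, were above the array median on no embryonic stem cell array. They passed the filter only through the stages where they are high. The part of mesenchymal, smooth muscle, mesothelial and endothelial cells in the rise of the caveolae genes was not tested.

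The sequences just upstream of 4 of the genes are shown because these genes carry the main patterns: Cav1 and Cav2, which lie next to each other and both rose, Cavin1, which rose with them, and Cav3, which was high in CM alone. Each is the 250 bases before the annotated start, 5′ to 3′ on the strand of the gene, from RefSeq on GRCm38.p6, with the motif matches in capitals. Cav1 (first of 2 annotated starts) lies at chr6:17306085-17306334 on the plus strand, Cav2 at chr6:17280935-17281184 on the plus strand, Cav3 at chr6:112459255-112459504 on the plus strand and Cavin1 (first of 2 starts) at chr11:100970616-100970865 on the minus strand.
Cav1: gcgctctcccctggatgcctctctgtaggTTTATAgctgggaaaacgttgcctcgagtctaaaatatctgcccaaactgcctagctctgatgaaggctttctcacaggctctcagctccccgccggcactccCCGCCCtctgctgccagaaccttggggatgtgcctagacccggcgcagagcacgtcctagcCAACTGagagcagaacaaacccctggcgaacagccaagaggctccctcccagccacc
Cav2: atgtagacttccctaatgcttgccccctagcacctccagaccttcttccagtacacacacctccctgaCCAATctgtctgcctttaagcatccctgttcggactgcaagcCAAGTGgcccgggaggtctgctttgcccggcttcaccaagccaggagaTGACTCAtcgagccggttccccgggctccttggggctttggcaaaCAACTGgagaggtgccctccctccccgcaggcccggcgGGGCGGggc
Cav3: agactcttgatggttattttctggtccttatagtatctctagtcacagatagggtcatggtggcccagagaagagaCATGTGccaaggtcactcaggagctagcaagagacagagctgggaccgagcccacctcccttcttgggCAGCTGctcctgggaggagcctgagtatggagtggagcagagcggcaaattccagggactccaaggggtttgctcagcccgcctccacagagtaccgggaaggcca
Cavin1: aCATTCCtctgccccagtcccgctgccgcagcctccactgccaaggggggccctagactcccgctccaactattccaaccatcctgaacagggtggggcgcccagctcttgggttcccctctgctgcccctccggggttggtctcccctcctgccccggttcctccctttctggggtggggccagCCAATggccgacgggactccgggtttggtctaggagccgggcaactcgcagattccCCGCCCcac

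The motifs were searched on both strands and are the GC box GGGCGG, the CCAAT box CCAAT, the TATA box TATAAA, the M-CAT core CATTCC, the E-box CANNTG, the AP-1 site TGANTCA and the CArG box. Windows were found for 6 of the 7 genes, without Cavin3. The GC box was present in windows of Cav1, Cav2, Cavin1 and Ehd2 and in 32.7% of all 32841 windows of the same length. The CCAAT box was present in Cav2, Cavin1, Cavin2 and Ehd2 (33.9% of all windows), and the E-box in Cav1, Cav2, Cav3 and Ehd2 (66.2%). The letters TATAAA were found in Cav1 alone (12.4%), an M-CAT core in Cavin1 alone (12.6%) and an AP-1 site in Cav2 alone (6.75%). The TATAAA match of Cav1 lay on the strand opposite to the gene, at -221 to -216 from the start in its first window. The second Cav1 window held none. No strand or position was required of a match, so it does not show a TATA promoter. No member window held a CArG box (1.47%). The G and C content was 59.6% for Cav1, 62% for Cav2, 56% for Cav3, 67.6% for Cavin1, 58% for Ehd2 and 40.4% for Cavin2, beside a median of 52.4% over all windows. A match is a description of the sequence and not a measured binding site.

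All 7 genes changed across the 4 stages by the moderated F test, beside 73.6% of all genes tested. The adjusted p ranged from 1.12e-13 for Cav1 to 7.16e-07 for Cavin3. All of them passed the filter on low signal, but Cav3 passed through its CM arrays alone and Cavin2 through its CP and CM arrays alone. Cav2 was above the array median on 1 ES-LIF(-) array and no ES-LIF(+) array, so it too needed its CP or CM arrays to pass. A difference of Cav2, Cav3 and Cavin2 was thus built into the filter. Withdrawal of LIF left all 7 genes uncalled, with 0 higher and 0 lower beside 4.13% and 3.80% of all genes tested, and adjusted p from 0.21 to 0.737 in limma. The unadjusted p was under 0.05 for 0 of the 7, and the fit without moderation also called 0. The 95% confidence interval of the log2 change of Cav1 was -0.04 to 0.44 and that of Cavin1 -0.83 to 0.02. Over the alternatives tried, the Cavin2 difference ranged from -0.54, with 1 array left out, to 0.03. Its adjusted p in limma ranged from 0.0341 to 0.972, and it stayed inside the 1.5-fold limit throughout.

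In CP, 6 of 7 genes were called higher than in ES-LIF(+), Cav3 being the exception, and none lower, beside 18.9% and 13.4% of all genes tested. In CM all 7 were called higher, beside 25.8% called higher and 23.9% lower. The median log2 change of the 7 genes was 2.20 in CP and 2.96 in CM, and that of all genes 0.04 and 0.06. Against ES-LIF(-), all 7 genes were called higher in CP (18.3% of all genes higher, 14.6% lower) and in CM (24.3% higher, 24.5% lower). These comparisons share their arrays and are not independent. Scaling changed the balance of calls over all genes: of the genes called in CP against ES-LIF(+), the share that was higher was 58.5% as deposited, 30.6% after centring each array on its median and 46.9% after quantile normalization, and in CM it was 51.9%, 33.2% and 43.6%. Against ES-LIF(-) the share was 55.7%, 29.9% and 44.6% in CP, and 49.9%, 32% and 41.4% in CM. Median centring moved the median log2 change of all genes to -0.24 in CP and -0.26 in CM. The calls of the 7 genes against ES-LIF(+) were the same under both scalings.

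**Figure D1:**
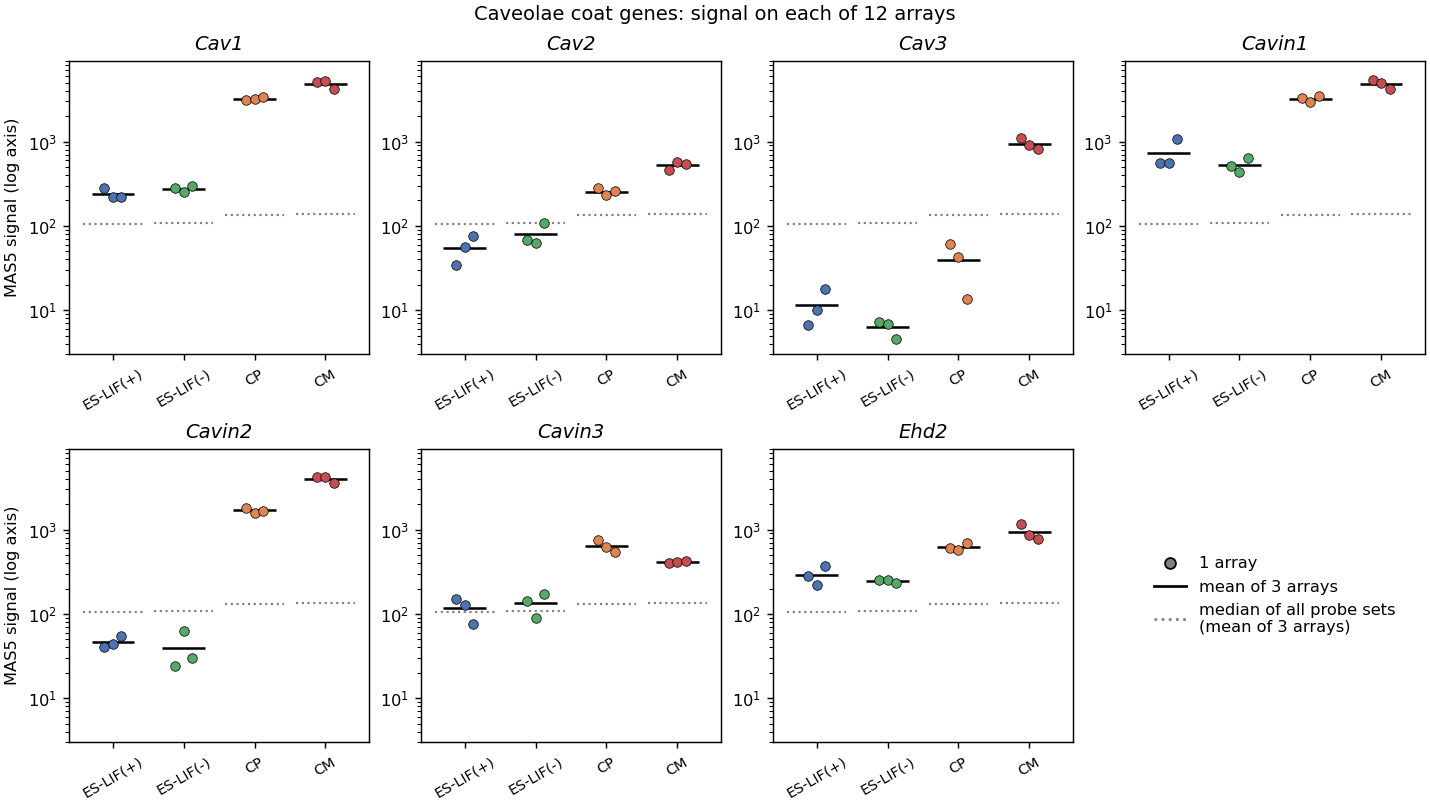
MAS5 signal (log axis) of the representative probe set of each gene on each of the 12 arrays by stage; points are arrays, black bars the mean of 3 arrays and dotted bars the mean of the 3 array medians. Cav1, Cavin1 and Cavin2 stand far above both embryonic stem cell stages in CP and CM, Cav3 is above the array median on the CM arrays alone, and Cavin3 is higher in CP than in CM.

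Cav1, the core scaffold protein of caveolae outside striated muscle, had the smallest standard error of the 7 genes. Its signal was 279.6, 217.8 and 222.6 in ES-LIF(+), 282, 249.2 and 297.7 in ES-LIF(-), 3130.4, 3203.1 and 3346.8 in CP, and 5017.8, 5173.9 and 4255.4 in CM. Every CP array lay above every embryonic stem cell array, and every CM array above every CP array. The log2 change was 3.67 (SE 0.11, adjusted p = 3.33e-12) in CP and 4.24 (SE 0.11, adjusted p = 2.69e-13) in CM against ES-LIF(+), which is 12.7-fold and 18.9-fold. From CP to CM the difference was 0.57 on the log2 scale (95% CI 0.33 to 0.81, adjusted p = 9.4e-04), just inside the 1.5-fold limit. Of all genes tested, 0.753% had a larger log2 change in CP and 1.10% in CM. Cav1 was among the genes that the study itself selected on these arrays, so its rise is not independent of that choice.

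Cav2, which forms hetero-oligomers with Cav1 and depends on it to reach the cell surface, rose in the same order. Its signal was 33.9, 56.3 and 75.8 in ES-LIF(+), 68.7, 62.5 and 109 in ES-LIF(-), 277.3, 231.8 and 255.9 in CP, and 460.9, 575.6 and 541 in CM. The ES-LIF(+) arrays all lay below their array medians, and the CP and CM arrays above theirs with no overlap between the stages. The log2 change was 1.97 (SE 0.26, adjusted p = 1.38e-05) in CP and 2.96 (SE 0.26, adjusted p = 7.68e-08) in CM, and CM exceeded CP by 1.0 (SE 0.26, adjusted p = 0.00628). A second Cav2 probe set, 1425955_at, did not follow: it read 21.6, 145.1 and 202.5 in CP and 42.7, 90 and 225.5 in CM beside 94.8 to 149.9 in ES-LIF(+), and its log2 change of -0.40 in CP (95% CI -1.62 to 0.82, adjusted p = 0.593) was not called. When the probe sets of a gene were averaged, the Cav2 change in CP fell to 0.78 with adjusted p = 0.057. The step from CP to CM fell to 0.53 with adjusted p = 0.227, and the CP difference from ES-LIF(-) to 0.56 with adjusted p = 0.16. These calls of Cav2 thus rest on the first probe set.

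Cav3, the muscle caveolin, was high in CM alone. Its signal was 6.6, 10 and 17.7 in ES-LIF(+), 7.2, 6.9 and 4.6 in ES-LIF(-), 60.8, 43.2 and 13.6 in CP, and 1106.7, 901.6 and 813.7 in CM. All 9 arrays of the earlier stages lay below the array median, and the third CP array overlapped the ES-LIF(+) arrays. CM exceeded CP by 4.21 on the log2 scale (SE 0.40, adjusted p = 1.23e-06) and ES-LIF(+) by 5.13 (SE 0.40, adjusted p = 2.32e-08); 0.327% and 0.487% of all genes tested had a larger change. The CM fold depends on the constant added to signals near 0. It ranged from 2.96 to 6.33 on the log2 scale against ES-LIF(+) over the alternatives tried. In CP the log2 difference from ES-LIF(+) was 0.92 (95% CI 0.07 to 1.77, adjusted p = 0.0639) and it was called without the third CP array (1.32, adjusted p = 0.0101). Against ES-LIF(-) the CP difference was 1.21 (adjusted p = 0.0186), and that call was lost without the first CP array (0.91, adjusted p = 0.0957) or the second (1.10, adjusted p = 0.0594). It was also lost after median centring (0.94, adjusted p = 0.0678), with 64 added to the signals (0.53, inside the fold limit), in a fit of the 2 stages alone (adjusted p = 0.121) and with signals raised to the array median (0.27, adjusted p = 0.0997). The difference from ES-LIF(+) was called without the intensity trend (adjusted p = 0.0251), without moderation (adjusted p = 0.0469) and with probe sets averaged (adjusted p = 0.0417). At such signals a low level in CP was not resolved from the embryonic stem cell arrays.

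Cavin1, formerly Ptrf, is the cavin without which no caveolae form. Its signal was 561.4, 550.7 and 1058.4 in ES-LIF(+), 511.2, 430.1 and 629.5 in ES-LIF(-), 3248.4, 2974.6 and 3443.6 in CP, and 5316.5, 4982.8 and 4190.6 in CM. The gene was above the array median on all 12 arrays, and the third ES-LIF(+) array was the highest of the 6 embryonic stem cell arrays. The log2 change was 2.20 (SE 0.20, adjusted p = 4.18e-07) in CP and 2.77 (SE 0.20, adjusted p = 1.14e-08) in CM. CM exceeded CP by 0.58 (95% CI 0.15 to 1.01, adjusted p = 0.0341), inside the 1.5-fold limit. With the probe sets averaged, the log2 change was 0.92 in CP (adjusted p = 0.00215) and 1.62 in CM (adjusted p = 8.77e-06). A dimmer probe set, 1421431_at, read 78 to 91.4 in ES-LIF(+), 55.2 to 92.3 in CP and 137.9 to 201 in CM. Its log2 change was -0.12 in CP (adjusted p = 0.772) and 0.85 in CM (adjusted p = 0.0217). It was above the array median on the CM arrays alone and passed the filter through them, so its CM value adds no support to the rise. The dimmest, 1453891_at, was at 59.2 or less on every array and was not tested.

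Cavin2, formerly Sdpr, binds phosphatidylserine and bends the membrane. Its log2 change in CP was the largest of the 7 genes. Its signal was 41, 44.1 and 55.4 in ES-LIF(+), 23.9, 63.3 and 30.4 in ES-LIF(-), 1822.5, 1574.8 and 1676.5 in CP, and 4159.7, 4199.4 and 3609.1 in CM. All 6 embryonic stem cell arrays lay below the array median and all 6 CP and CM arrays far above it. The log2 change was 4.77 (SE 0.21, adjusted p = 1.2e-10) in CP and 6.0 (SE 0.21, adjusted p = 4.75e-12) in CM, and CM exceeded CP by 1.23 (SE 0.21, adjusted p = 2.68e-04). Of all genes tested, 0.274% had a larger log2 change in CP and 0.228% in CM. The other probe sets, 1416779_at and 1443832_s_at, gave 5.10 and 5.09 in CP and 6.25 and 6.36 in CM. Both were above the array median on CP and CM arrays alone and passed the filter through them. The low end of the Cavin2 change lies near background. This change ranged from 3.80 to 5.15 in CP and from 5.03 to 6.39 in CM over the alternatives tried. Its order relative to Cav3 in CM is not settled, since both genes lay below the array median in embryonic stem cells: with 1 added in place of 16, the log2 changes of Cavin2 and Cav3 were 6.39 and 6.33 against ES-LIF(+) and 6.75 and 7.03 against ES-LIF(-).

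Cavin3, formerly Prkcdbp, binds protein kinase C delta and joins the coat through Cavin1. Alone among the 7 genes, its CM arrays all lay below its CP arrays. Its signal was 150.8, 128.1 and 76.9 in ES-LIF(+), 142.9, 89.3 and 170.2 in ES-LIF(-), 748.8, 615 and 536.9 in CP, and 404.4, 408.3 and 428.5 in CM. The log2 change was 2.30 (SE 0.24, adjusted p = 1.72e-06) in CP and 1.72 (SE 0.24, adjusted p = 1.54e-05) in CM. CM differed from CP by -0.58 on the log2 scale (95% CI -1.10 to -0.07), which was not called at adjusted p = 0.0725 (unadjusted p under 0.05). Median centring turned it into a call lower in CM (-0.62, adjusted p = 0.0441), as did quantile normalization (-0.67, adjusted p = 0.0335).

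Ehd2 rose in CP and CM by an amount that depended on the probe set. The signal of its representative probe set, 1424157_at, was 284.8, 217.9 and 367.2 in ES-LIF(+), 250.5, 251.6 and 235 in ES-LIF(-), 613.1, 573.8 and 692.3 in CP, and 1163.6, 869.7 and 770.4 in CM. CP and CM arrays lay above all embryonic stem cell arrays and did not overlap each other. The log2 change was 1.10 (SE 0.18, adjusted p = 1.25e-04) in CP and 1.64 (SE 0.18, adjusted p = 1.11e-06) in CM, and the step from CP to CM was 0.55 (95% CI 0.16 to 0.93, adjusted p = 0.0263), inside the 1.5-fold limit. By this probe set Ehd2 had the smallest of the changes called in CP, but not by 1424158_at or 1435785_at. Probe set 1435785_at, which has the higher mean on the linear scale, read 119.6, 107.1 and 22.5 in ES-LIF(+), 936.2, 888.2 and 964.1 in CP, and 1328.6, 1228.9 and 1187.7 in CM, with log2 changes of 3.45 (adjusted p = 1.02e-06) in CP and 3.87 (adjusted p = 1.07e-07) in CM. Probe set 1424158_at gave 2.26 and 2.78, and 1459823_at gave 1.63 and 1.57. The former was above the array median on CP and CM arrays alone and passed the filter through them. The dim probe set 1427729_at read 51.4 to 63.2 in ES-LIF(+), 26.1 to 42.8 in CP and 33.3 to 49.8 in CM, below the array median on every array, and was not tested.

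**Figure D2:**
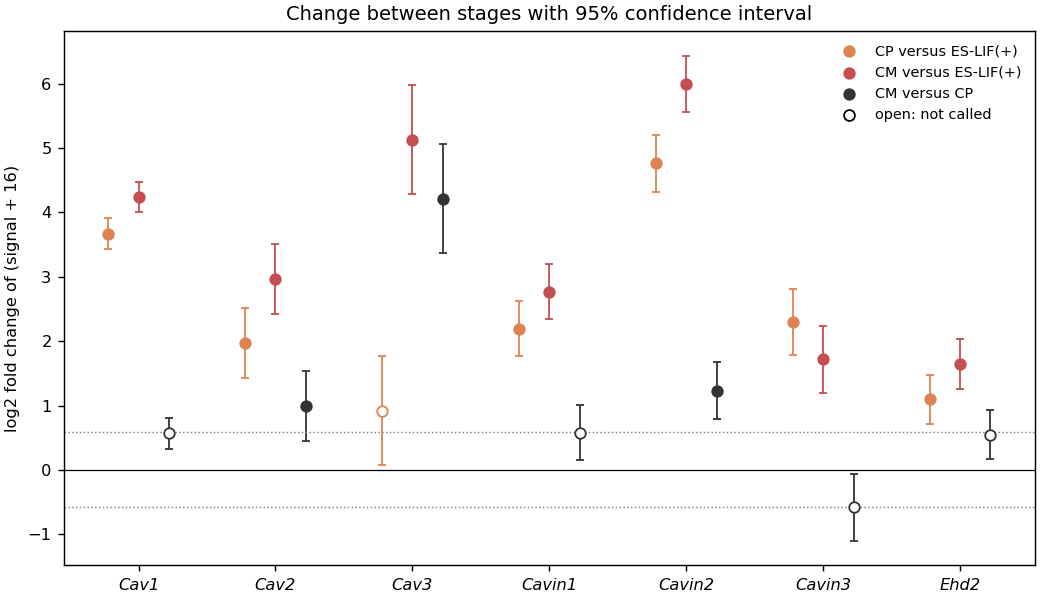
Log2 fold change of signal + 16 (vertical axis) for each gene in CP versus ES-LIF(+), CM versus ES-LIF(+) and CM versus CP, with 95% confidence intervals; filled points were called, open points were not, and dotted lines mark the 1.5-fold limit. Cavin2 has the largest change in CP, at 4.77, Cavin2 and Cav3 have the highest points in CM (their order depends on the constant added), Cav3 has the largest step from CP to CM, and Cavin3 the negative step, at -0.58.

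From CP to CM, Cav2, Cav3 and Cavin2 were called higher (3 of 7) and no gene lower, beside 9.12% and 10.5% of all genes tested. Cav3 passed the filter on low signal through its CM arrays alone, so a difference of CM from CP was built into its selection. Its call adds no support to the count. Cav2 and Cavin2 needed their CP or CM arrays to pass, but were above the array median on all arrays of both stages. Cav1, Cavin1 and Ehd2 passed the adjusted p but not the fold, and their folds of 1.48, 1.49 and 1.46 sat just under the limit. The CM arrays lay wholly above the CP arrays for 6 genes and wholly below for Cavin3, beside 21.9% and 28.1% of all genes. The count of 3 depended on single arrays: without the third CP array it was 5, adding Cav1 and Ehd2, and without the third CM array it was also 5, where Cav1, Cavin1 and Ehd2 were added and Cav3 no longer passed the filter. The 3 calls held Cav3, the muscle isoform, with the largest step, and a caveolin and a cavin that had already risen in CP.

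**Figure D3:**
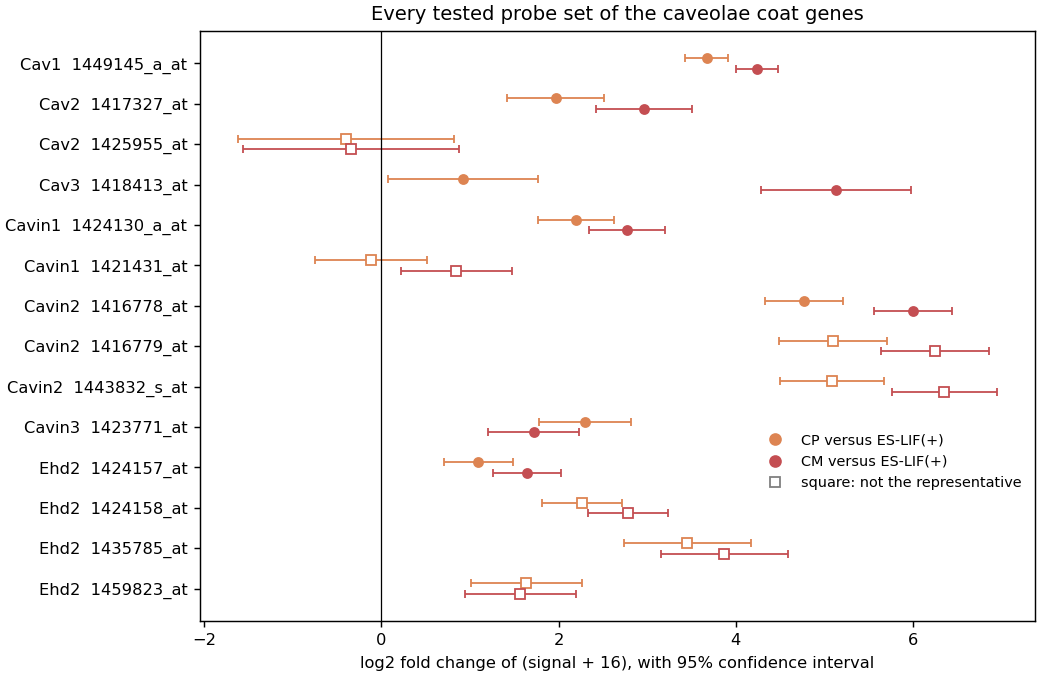
Log2 fold change of signal + 16 with 95% confidence interval for each of the 14 tested probe sets in CP (orange) and CM (red) versus ES-LIF(+); circles are the representative probe sets and squares the others. The Cavin2 probe sets lie together between 4.77 and 6.36, those of Ehd2 spread from 1.10 to 3.87, and the second Cav2 probe set lies near 0.

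Across the 12 arrays the log2 values of the genes followed each other, with Pearson r from 0.54 for Cav3 and Cavin3 to 0.99 for Cav1 and Cavin2. Within stages, after subtraction of each stage mean, r ran from -0.69 for Cavin2 and Cavin3 to 0.71 for Cav2 and Cavin1. These are descriptions over 12 arrays that share 4 stages. Among all other genes tested, the 3 most like Cav1 were Cemip (r = 0.99915), Cdkn1a, the cyclin-dependent kinase inhibitor p21 (0.99874), and Selenom (0.99798). Cavin1 was closest to Stat5a (0.99608), Anxa3 (0.99384) and R3hdm4 (0.99249), and Cavin2 to Osbpl5 (0.99625), Plxnb2 (0.99601) and Gpr176 (0.99592). Cav2 was closest to the growth hormone receptor Ghr (0.99316), Creld1 (0.98676) and Spcs1 (0.98655), and Ehd2 to Mbnl1 (0.98404), Rarb (0.98376) and Myadm (0.98303). Cav3 was closest to Alpk2 (0.99175), to Tnni1, the slow skeletal troponin I of embryonic heart (0.9903), whose mean signal was 36 in ES-LIF(+), 75.2 in CP and 7642 in CM, and to Vsnl1 (0.98928). Cavin3 was closest to Tgfbr2 (0.98199), Vcam1 (0.97852) and Os9 (0.97776); Tgfbr2 had mean signals of 215.3, 3535 and 1667 in ES-LIF(+), CP and CM, and so was also lower in CM than in CP.

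Cav2 and Cav1 stand side by side on chromosome 6 between Tes and Met, and both neighbours were also higher in CP and CM than in ES-LIF(+). Tes, which encodes a focal adhesion protein, had mean signals of 657.9 in ES-LIF(+), 1006 in ES-LIF(-), 1929 in CP and 2242 in CM. Its log2 changes against ES-LIF(+) were 1.55 in CP (adjusted p = 3.24e-07) and 1.77 in CM (adjusted p = 2.62e-08). Met, the receptor of hepatocyte growth factor, had means of 149.9 in ES-LIF(+), 280.7 in ES-LIF(-), 327.5 in CP and 304.8 in CM. Its log2 changes were 1.04 in CP (adjusted p = 2.71e-04) and 0.96 in CM (adjusted p = 3.62e-04). Much of the Met difference was thus present in ES-LIF(-), whereas the Cav1 means were 240 in ES-LIF(+) and 276.3 in ES-LIF(-). The neighbours were chosen by position alone.

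The accessory proteins and kinases of caveolae, which shape the neck, drive scission or phosphorylate caveolin, had 14 genes tested. In CP 4 were called higher and 0 lower, and in CM 7 higher and 1 lower, with median log2 changes of 0.37 and 0.70. Here and for the lists that follow, the shares of all genes called higher and lower were 18.9% and 13.4% in CP and 25.8% and 23.9% in CM. Dnm1, a dynamin that cuts vesicles from the membrane, had the largest change in CP at 3.03 (adjusted p = 4.72e-07). Prkca, protein kinase C alpha, rose by 1.48 in CP and 1.75 in CM (adjusted p = 2e-06 and 1.34e-07). Ehd4, a relative of Ehd2, rose by 2.58 in CM (adjusted p = 6.71e-10) and differed by 0.43 in CP, which was not called. Pacsin1, the neuronal form of the membrane-bending pacsins, was the gene called lower in CM (-1.03), a call lost without the second CM array (-0.75, adjusted p = 0.0591). Cavin4, the muscle cavin, was read by a dim probe set with means of 74.8 in ES-LIF(+), 84.1 in CP and 78.1 in CM and was not tested.

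Receptors, channels and enzymes reported to reside in caveolae had 20 genes tested, of which 8 were called higher and 2 lower in CP, and 15 higher and 1 lower in CM, with medians of 0.47 and 1.65. The receptors Tgfbr2 (3.96, adjusted p = 7.73e-11) and Pdgfrb (3.56, adjusted p = 2.14e-08) had the largest log2 changes in CP. The sodium-calcium exchanger Slc8a1 (4.27, adjusted p = 8.54e-09) and Popdc2, a cAMP-binding protein of striated muscle (4.24, adjusted p = 4.53e-11), had the largest in CM. Slc8a1, Cd36 and Popdc3 were above the array median on CM arrays alone, and Pdgfrb and Cacna1c on CP and CM arrays alone, so they passed the filter through the stages where they are high. The size of the Slc8a1 and Pdgfrb changes depends on the constant added, since their ES-LIF(+) means were 14.9 and 32.6. The genes called lower in CP were the endothelial nitric oxide synthase Nos3 (-0.73) and the hedgehog receptor Ptch1 (-1.43), and in CM Ptch1 (-2.11). The Nos3 call was lost without the second or the third ES-LIF(+) array (adjusted p = 0.0834 and 0.0506) and without the first or the third CP array (adjusted p = 0.0569 and 0.132). From CP to CM, 11 residents were called higher and 2 lower, beside 9.12% and 10.5% of all genes.

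Flotillins mark membrane domains without caveolin and were listed here with other proteins assigned to rafts. The list moved both ways, but Flot1 and Flot2 were not among the genes called lower than in ES-LIF(+). Of 7 genes tested, 2 were called higher and 2 lower in CP, and 3 higher and 4 lower in CM. The medians were 0.07 and -0.88. Relative to ES-LIF(-), 3 were called higher and 3 lower in CM (24.3% and 24.5% of all genes), with a median of 0.39. Against ES-LIF(+), Flot1 rose by 1.05 in CP (adjusted p = 2.84e-07) and 1.56 in CM (adjusted p = 1.32e-09). The stomatin gene Stom rose by 1.79 in CP (adjusted p = 2.13e-09), whereas the galectin gene Lgals3 was lower in CM (-1.56, adjusted p = 1.84e-07). Lgals3 was lowest after LIF withdrawal, with means of 2353 in ES-LIF(+), 610.7 in ES-LIF(-), 2470 in CP and 786 in CM. Of 11 genes that make, move or break down cholesterol and sphingomyelin, 3 were called higher and 1 lower in both CP and CM against ES-LIF(+). The medians of these genes were 0.05 and 0.19, and a gene called higher need not raise the supply of either lipid. Smpd1, acid sphingomyelinase, which breaks down sphingomyelin, rose by 1.71 in CP (adjusted p = 1.82e-09) and 2.37 in CM (adjusted p = 2.02e-11). Npc2, which carries cholesterol out of lysosomes, rose by 0.74 in CP (adjusted p = 1.38e-06), but by 0.46 and inside the fold limit after median centring. The cholesterol exporter Abca1 was the gene lower in CP (-0.66, adjusted p = 7.09e-04) and in CM (-2.19, adjusted p = 1.82e-09). Its CP call was lost with probe sets averaged (-0.19, adjusted p = 0.456). Abca1 was lowest after LIF withdrawal, with means of 1369 in ES-LIF(+), 212.7 in ES-LIF(-), 855.9 in CP and 288.3 in CM. Against ES-LIF(-), 5 of the 11 were called higher and 1 lower in CP (18.3% and 14.6% of all genes). In CM 5 were higher and 0 lower (24.3% and 24.5%).

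The clathrin coat, the other main coat of endocytic pits, had 17 genes tested, with 4 called higher and 0 lower in CP, 5 higher and 1 lower in CM, and medians of 0.21 and 0.29. Against ES-LIF(+), the cargo adaptor Dab2 rose by 2.59 in CP (adjusted p = 1.11e-10) and 2.63 in CM (adjusted p = 3.97e-11). Bin1, which bends membranes, rose by 1.32 in CP (adjusted p = 6.71e-06), and Hip1, which links clathrin to actin, by 1.6 in CM (adjusted p = 3.5e-08). Part of the difference was present in ES-LIF(-) for Hip1, with means of 291.9 in ES-LIF(+), 603 in ES-LIF(-), 578.4 in CP and 922.8 in CM. The Dab2 means were 299.3, 709.3, 1880 and 1931 in the same order. Fcho1, which starts clathrin pits, was the gene called lower in CM (-1.23). After median centring, 12.1% of all genes were called higher and 27.5% lower in CP, and 17.5% and 35.1% in CM. On that scale 4 clathrin genes were called lower in CP and 3 in CM, and 3 higher in CM. Under the same centring the accessory genes had 2 called higher in CP, and the residents 4 called lower in CP and 3 in CM. The cholesterol and sphingomyelin genes then had 1 higher and 3 lower in CP, and 1 higher and 2 lower in CM. The difference between the caveolae coat and any other list was not tested.

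**Figure D4:**
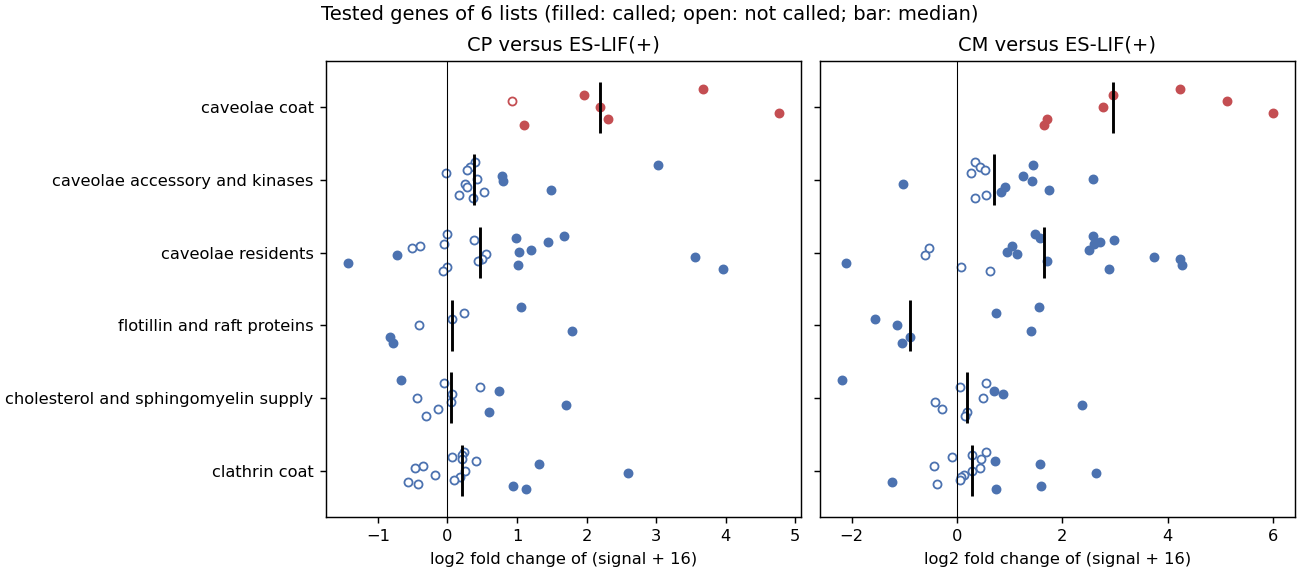
Log2 fold change of signal + 16 (horizontal axis) of every tested gene of 6 lists in CP (left) and CM (right) versus ES-LIF(+); filled points were called, open points were not, and bars mark the list medians. The caveolae coat (red) lies wholly above 0 with medians of 2.20 and 2.96, and the clathrin coat has medians of 0.21 and 0.29.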

How the data were processed

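RNA of 12 cultures was hybridised to Mouse Genome 430 2.0 arrays. The deposited values are linear MAS5 intensities (signals), scaled by the authors to a common trimmed mean leaving out 2% at each end; the annotation build is not given in the sources used here. Of 45101 probe sets, 64 controls were removed; 34945 named 1 gene in the platform annotation, 932 several and 9160 none.

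Groups followed the labels. Signals were taken as log2(signal + 16), and 26083 probe sets above their array's median on at least 3 of 12 arrays were fitted with limma 3.58.1 in R 4.3.3, with a mean per stage and intensity-trended moderation. A gene was read from the probe set whose log2 values had the highest mean, and Benjamini-Hochberg adjustment ran over 13145 genes. The script was tested on simulated data. No 2 arrays were duplicates.

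The members and lists were chosen with earlier results of these data known. Of 83 list genes, 6 had no probe set. Named list genes were the 2 called genes with the largest absolute change per list in CP and in CM, genes behind small counts, and the 3 genes best correlated with each member. Pacsin1, Ehd4 in CP, Nos3, Ptch1, Fcho1, Cavin4, Cd36, Popdc3, Cacna1c and the single cell type markers were named after their values were seen. Alternatives were scaling, pseudocount, filter, moderation, samples fitted, probe set choice, fold limit, replicate block and single arrays left out, and signals raised to the array median, an alternative chosen after seeing the data.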

Additional observations from a re-analysis of the deposited data

How the results depend on the processing

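Under 26 alternatives, the 42 differences of the 7 genes gave 1035 outcomes with the same direction and call, 9 calls lost and 18 gained. In 6 outcomes an uncalled difference of ES-LIF(-) from ES-LIF(+) changed sign: Ehd2 to 0.72 with the probe set of the highest linear mean, Cavin2 to 0.0292 with the mean over probe sets, Cav3 and Cavin2 both to 0.0146 with signals raised to the array median, and Cavin3 to -0.0861 without the third ES-LIF(+) array and to -0.015 without the third ES-LIF(-) array, with a range of -0.0861 to 0.396 over single arrays left out. Of 39 differences of other named genes, 991 outcomes were unchanged, 14 calls were lost, 1 was gained and 0 changed sign. The count called higher in CM than in CP, 3, was 5 under quantile normalization and 6 with no fold limit, and 2 to 5 with single arrays left out; the count lower was 1 under median centring and under quantile normalization (Cavin3). Cav3 was untested with a filter at 6 arrays or with any 1 CM array left out, which gives the counts of 6 against ES-LIF(+) and ES-LIF(-) in CM. Over all genes, median centring gave 1596 higher and 3615 lower in CP against ES-LIF(+), instead of 2486 and 1762, and 1591 and 3725 against ES-LIF(-), instead of 2410 and 1918. With no fold limit the counts were 3475 and 3453 in CP against ES-LIF(+), 3390 and 3616 against ES-LIF(-), 1111 and 890, instead of 543 and 500, in ES-LIF(-) against ES-LIF(+), and 2006 and 2950, instead of 1199 and 1382, in CM against CP. The labels tie arrays of the same replicate number by that number alone. The correlation of their deviations from stage means was -0.05 to 0.10, and 4 of 12 arrays correlated best with their own number. With the replicate block the counts stayed at 6 in CP and 7 in CM against ES-LIF(+) and at 3 in CM against CP. No batch is named in the labels, and a batch that does not follow the replicate number was not tested. Signals near background, those of Cav3 outside CM and of Cavin2 outside CP and CM, limit the size of a fold.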
